A study of Mus musculus with 16 samples.

Results

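The TSH receptor and the machinery that makes, breaks down and reads cAMP were followed as 44 genes in the thyroid glands of 16 female mice. The members were chosen by name and role: the receptor *Tshr*, 3 G protein alpha subunits, 9 adenylyl cyclases, 11 cAMP phosphodiesterases, 6 subunits and 3 inhibitors of protein kinase A (PKA), 3 CREB-type factors, 3 CREB coactivators, 2 cAMP-activated exchange factors, 2 arrestins and 1 RGS protein. All 44 symbols were found among the 25611 entries of the count table, and all 44 were among the 16630 genes that passed the filter on low counts.

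The mice formed 4 groups of 4, WT and *Glis3*-Pax8Cre, each on a normal diet (ND, NIH-31) or a low-iodine diet (LID, TD.95125). Mice of both genotypes are labelled as C57BL/6 and 1 month old, with weaning at 3 weeks, and the study's methods give 4 weeks of age and 6 days of diet. The knockout mice are also labelled B6;129, so any difference of background from WT cannot be told apart from genotype. They carry the alleles Glis3<tm2Amj> and Pax8<tm1.1(cre)Mbu>. In these mice the Cre recombinase is driven by the *Pax8* locus, which is active in thyroid follicular cells and also in kidney and other tissues, and it removes exon 5 of *Glis3*, which encodes zinc finger 3 and 4 of the factor. The WT mice are labelled WT only, so whether they carried Cre or a floxed allele is not given in the sources used here. Whole glands were sequenced in bulk, so fewer cells of a type and less RNA per cell cannot be told apart.

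TSH from the pituitary binds TSHR on the basal side of the follicular cell. The receptor couples to Gs alpha, which activates adenylyl cyclases, and cAMP then releases the catalytic subunits of PKA, which phosphorylate CREB-type factors. The same cAMP opens the exchange factors of RAP1 known as EPAC, phosphodiesterases (PDEs) break it down, and arrestins uncouple the receptor. In the thyroid this route carries the signal for iodide uptake, hormone synthesis and growth, and a diet poor in iodine raises serum TSH.

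Depth ranged from 13892352 counts in *Glis3*-Pax8Cre(ND) replicate 1 to 461077969 in WT(ND) replicate 4, with a median of 69163432. Levels are given as CPM, a gene's count divided by the scaled library total and multiplied by 1000000, and the mice of a group are numbered 1 to 4 by their replicate number. *Tg*, the follicular thyroglobulin gene, took 7.87% to 29.3% of the counts, and the follicular factors *Nkx2-1* and *Foxe1* were detected in every mouse. *Glis3* itself was at 72.98 ± 18.7 CPM on ND and 156 ± 21.7 on LID in WT and 96.1 ± 8.41 and 165 ± 37.4 in *Glis3*-Pax8Cre mice (mean ± SD, n = 4). Its count covers the whole gene, so it checks nothing about the deleted exon. *Glis3*-Pax8Cre(ND) replicate 4 stood apart: the 6 thymocyte markers summed to 1970.5 CPM there and to between 2.80 and 244 CPM in the other 15 mice, and its mean correlation with its own group was 0.953 against 0.976 or more in the others.

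A member is called here when its adjusted p was under 0.05 in edgeR's quasi-likelihood test over all 16630 genes. Differences are on the log2 scale with their standard error. Of the 44 members, 37 were called in at least 1 of the 4 comparisons of groups. No such share was counted over all genes, so this count cannot be set beside theirs. The 7 that were not are *Adcy2*, *Adcy5*, *Pde7a*, *Pde8b*, *Prkaca*, *Pkia* and *Creb1*.

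The comparison with the most calls was that of the diets in WT. In WT(LID) against WT(ND), 19 members rose and 8 fell (43.2% and 18.2% of the 44), beside 20.9% and 20.8% of all genes tested. The median log2 difference was 0.20 over the members and -0.03 over all genes. In *Glis3*-Pax8Cre(LID) against *Glis3*-Pax8Cre(ND), 11 rose and 8 fell (25.0% and 18.2%), beside 13.1% and 12.3% of all genes. The main fit called 2184 of all 16630 genes higher and 2039 lower. Same-numbered mice of these 2 groups deviated together, and a fit of these 8 mice with a term for the replicate number called 9 higher and 3 lower, beside 1545 and 1348 of 15944 genes. The fit on those 8 mice without the block called 7 higher and 1 lower, beside 1321 and 1053 of the same 15944 genes. Out of all 44, 12 were called with *Glis3*-Pax8Cre(ND) replicate 2 left out, 11 with *Glis3*-Pax8Cre(LID) replicate 3 left out and 12 with replicate 4 of that group left out. Over all genes these fits called 1747 higher and 1552 lower, 1765 and 1583, and 1984 and 1591, in that order.

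Between genotypes on LID, 6 members were higher and 15 lower in *Glis3*-Pax8Cre than in WT mice on LID (13.6% and 34.1% of the 44), beside 14.9% higher and 15.4% lower among all genes. The median was -0.10 over the members and 0.01 over all genes. On ND, 4 were higher and 4 lower in *Glis3*-Pax8Cre(ND) (9.09% each), beside 10.3% and 9.25% of all genes, and 5 were called without WT(ND) replicate 2. Without that mouse 1132 of all genes were higher and 1064 lower, beside 1714 and 1538 with it. In the interaction, the test of whether the genotype difference was the same on both diets, 2 members were called positive and 8 negative (4.55% and 18.2%), beside 4.43% and 7.41% of all genes. The interaction count was 5 without WT(LID) replicate 2, and 6 with any 1 of WT(ND) replicate 2, WT(LID) replicates 3 and 4 or *Glis3*-Pax8Cre(LID) replicate 2 left out. Over all genes the fit that called 5 members called 440 positive and 1036 negative, beside 737 and 1232 with all mice. Those that called 6 members called 432 to 690 positive and 963 to 1209 negative.

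When libraries were scaled by their totals only, the median log2 difference of all genes became 0.16 and 0.14 in the genotype comparisons on LID and ND, and -0.18 and -0.17 in the diet comparisons in WT and *Glis3*-Pax8Cre mice, and the members' medians became 0.05, 0.09, 0.04 and -0.09 in that order. The members' split then became 8 higher and 10 lower for genotype on LID, beside 24.8% and 11.1% of all genes, and 8 and 3 for genotype on ND, beside 16.4% and 5.62%. For diet it became 14 and 11 in WT, beside 14.6% and 31.3% of all genes, and 7 and 11 in *Glis3*-Pax8Cre mice, beside 7.80% and 20.4%. With that scaling these calls were lost: the genotype differences on LID of *Gnaq*, *Gna11*, *Adcy3*, *Adcy6* and *Prkar1b*, that of *Gnas* on ND, the diet differences in WT of *Gna11*, *Adcy3*, *Pde4b*, *Prkar1a* and *Atf1*, those in *Glis3*-Pax8Cre mice of *Pde4b*, *Prkar1a*, *Prkar2a* and *Crem*, and the interactions of *Pde3b*, *Pde8a* and *Crtc1* (adjusted p 0.0506 to 0.581). The rise of *Prkar2a* with LID in WT was then 0.32 (adjusted p = 0.0346), and *Atf1* on ND was then higher in *Glis3*-Pax8Cre mice by 0.38 (adjusted p = 0.00559). At the thresholds of the study, 0.01 for the adjusted p together with a change of over 2-fold, 7 members passed between genotypes on LID (7.93% of all genes did), 2 on ND (4.15%), 10 with diet in WT (12.5%), 4 with diet in *Glis3*-Pax8Cre mice (5.0%) and 3 in the interaction (3.63%).

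**Figure D1:**
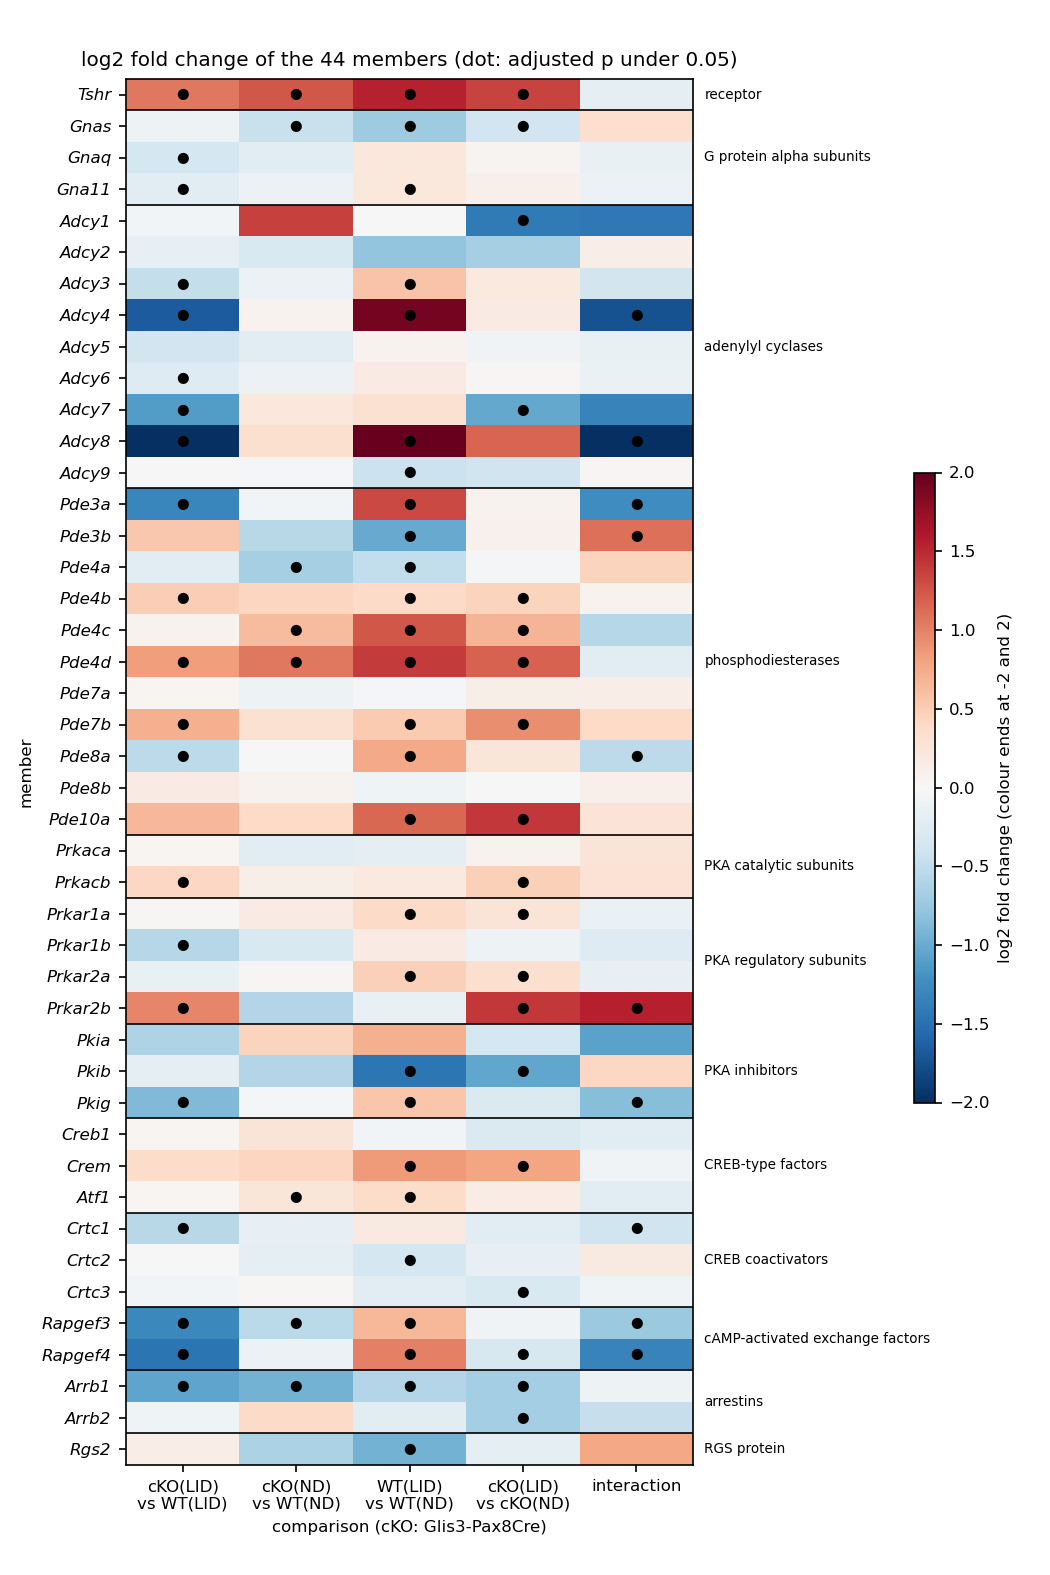
Colour gives the log2 difference of each of the 44 members (rows, ordered by role) in the 4 comparisons of groups and the interaction (columns), red higher and blue lower in the group named first, with cKO for *Glis3*-Pax8Cre. Dots mark an adjusted p under 0.05: 21, 8, 27, 19 and 10 members from left to right, and the colour scale ends at -2 and 2, which *Adcy8* passes.

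The diet comparisons in WT and in *Glis3*-Pax8Cre mice share no mouse. In both of them 9 members rose (*Tshr*, *Pde4b*, *Pde4c*, *Pde4d*, *Pde7b*, *Pde10a*, *Prkar1a*, *Prkar2a* and *Crem*), 20.5% of the 44 beside 8.59% of all genes. *Gnas*, *Pkib* and *Arrb1* fell in both, 6.82% beside 7.25% of all genes. *Rapgef4* was called in opposite directions. In the fit of the 8 *Glis3*-Pax8Cre mice with the replicate block, the calls of *Prkar1a*, *Prkar2a*, *Gnas* and *Rapgef4* in these mice were lost. That fit called 12 members, beside 8 in the same mice without the block and 16 with the block over all 16 mice. Over all genes the block over all 16 mice called 2108 higher and 1930 lower. The cause of the losses was not tested. Below, an adjusted p under the replicate block is that of the 8-mouse fit unless stated otherwise. Of the 9, 5 are phosphodiesterases, the enzymes that remove cAMP.

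CREB-type factors bind the cAMP response element, so RefSeq promoters of the GRCm38.p6 build (250 bases before to 50 after a start site) were searched for its palindrome TGACGTCA and its core TGACG on either strand, where each palindrome also holds 2 overlapping cores. A promoter entry was matched for 33 of the 44 members, 65 windows in all. The palindrome was found in 1.79% of all 32851 promoters and in 2 member windows, both of *Prkar1a*, which overlap and hold the same site. The core was found in 20.8% of all promoters and in 20 of the 65 member windows (30.8%), which belong to 16 genes. Overlapping windows of a gene can hold the same site, as those of *Gnas* do. Of the members that rose with LID in WT, 7 of the 15 with an entry hold a core. Of those that fell, 4 of 5 do, and of those not called 5 of 13 do. These are counts of genes, some with several windows, and no such share was counted over all genes. The stretches below show the motif, in capitals, with its neighbours in members of both directions: *Prkar1a*, *Pde4b* and *Atf1* rose with LID in WT and *Gnas* and *Rgs2* fell. They lie at chr11:109650889-109650918, chr4:102421509-102421538 and chr15:100227757-100227786 on the plus strand, chr2:174327699-174327728 on the plus strand and chr1:144004199-144004228 on the minus strand, 5′ to 3′ along the gene. The core in the *Gnas* stretch starts at -38 and -57 relative to neighbouring start sites, and *Gnas* has further start sites.
Prkar1a: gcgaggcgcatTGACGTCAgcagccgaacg
Pde4b: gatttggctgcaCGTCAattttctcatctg
Atf1: gtgaccacgcggTGACGcagcacgccggcg
Gnas: aagaggttggggCGTCAtcaggctggttag
Rgs2: ttggggcgtggcTGACGcctccaggtcccg

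*Tshr* encodes the receptor itself (chr12:91400993-91540509, plus strand, mm10). Its level was 89.5, 128, 156 and 45.7 CPM in the 4 WT(ND) mice and 281, 234, 252 and 226 CPM in the 4 *Glis3*-Pax8Cre(ND) mice. On LID it was at 260.3, 344, 321 and 289.7 CPM in WT and 588, 581, 733 and 616 CPM in *Glis3*-Pax8Cre mice. Every *Glis3*-Pax8Cre(LID) mouse was above every other mouse and every WT(ND) mouse below, while WT(LID) and *Glis3*-Pax8Cre(ND) overlapped. *Tshr* rose with LID by 1.54 ± 0.26 (adjusted p = 2.69e-04) in WT and by 1.34 ± 0.26 (adjusted p = 0.00181) in *Glis3*-Pax8Cre mice. It was higher in *Glis3*-Pax8Cre mice by 1.05 ± 0.26 (adjusted p = 0.00599) on LID and 1.25 ± 0.26 (adjusted p = 0.00400) on ND. The genotype difference was not shown to differ between diets, with an interaction of -0.20 (95% interval -0.96 to 0.57). The follicular transcription factors *Nkx2-1* and *Foxe1* were called in none of the 4 comparisons, with differences from -0.16 to 0.24.

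**Figure D2:**
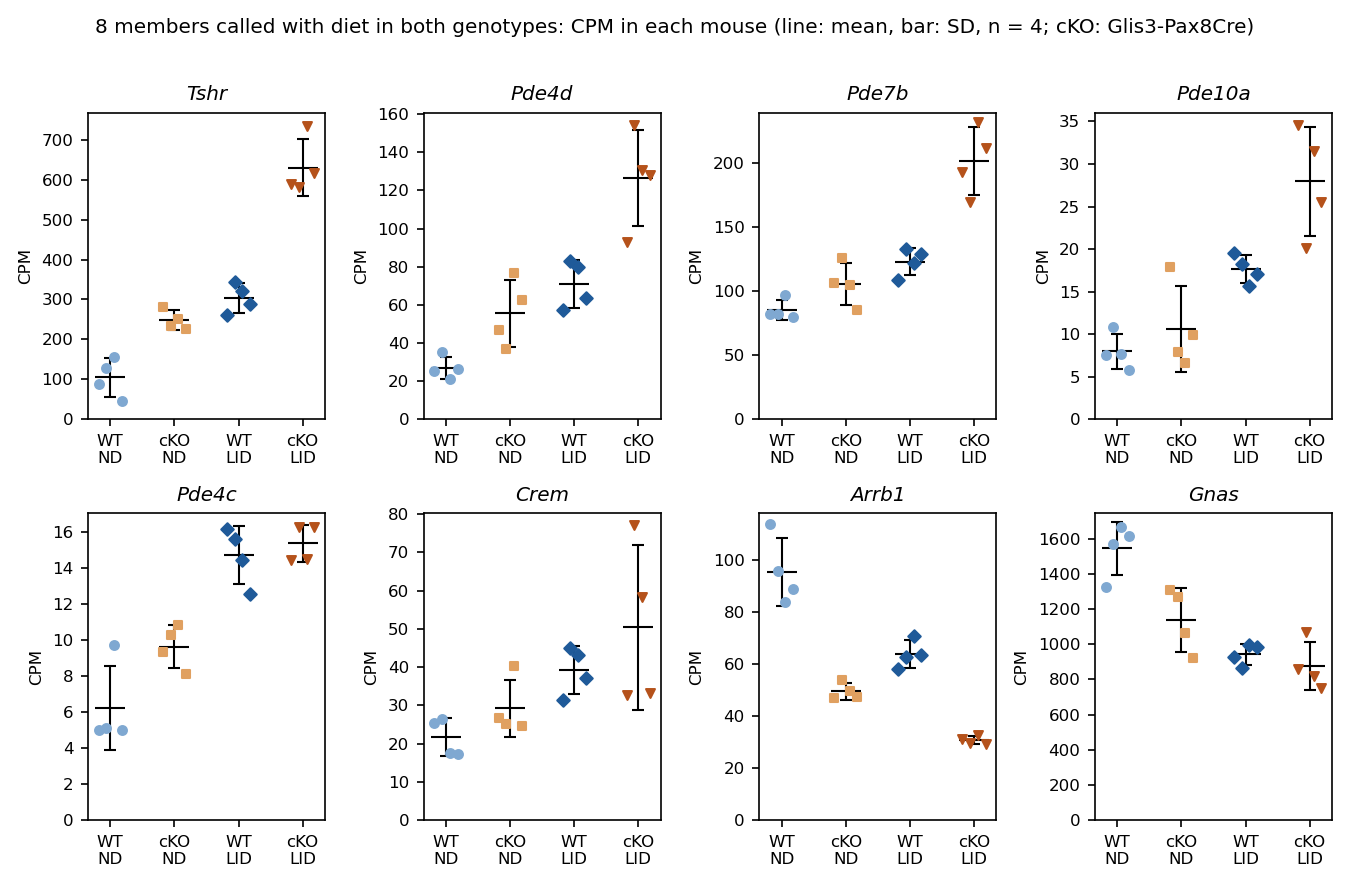
Points are the CPM of each mouse in the 4 groups for 8 members called with diet in both genotypes, horizontal lines are means and bars are SD (n = 4), on axes that start at 0, with cKO for *Glis3*-Pax8Cre. *Tshr*, *Pde4d* and *Pde7b* are highest in the 4 *Glis3*-Pax8Cre(LID) mice without overlap with any other group, and *Arrb1* is lowest there, at 29.4 to 32.8 CPM.

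Of the G protein alpha subunits, *Gnas*, which encodes Gs alpha, had the highest level per length of all 44 members in WT(ND), 149 CPM per kb of exon. Its levels were 1327, 1573, 1669 and 1617 CPM in WT(ND) and 1309, 1271, 1062 and 919.9 in *Glis3*-Pax8Cre(ND). In the LID groups it was at 927, 863, 997 and 984 CPM in WT and 859, 1069, 820.2 and 752 in *Glis3*-Pax8Cre mice. All WT(LID) mice were below all WT(ND) mice, and the *Glis3*-Pax8Cre groups overlapped. *Gnas* fell by 0.71 ± 0.13 (adjusted p = 4.74e-04) with LID in WT. It also fell in *Glis3*-Pax8Cre mice (log2 difference -0.38 ± 0.13, adjusted p = 0.0424), with adjusted p = 0.0665 under the replicate block, and the call was lost without any 1 of WT(ND) mouse 2, *Glis3*-Pax8Cre(ND) mice 1 and 2, WT(LID) mouse 4 or *Glis3*-Pax8Cre(LID) mice 1, 3 and 4 (adjusted p 0.0546 to 0.119). On ND it was lower in *Glis3*-Pax8Cre mice (log2 difference -0.44 ± 0.13, adjusted p = 0.0286), a call lost without any 1 of WT(ND) mice 2, 3 and 4 or *Glis3*-Pax8Cre(ND) mice 3 and 4 (adjusted p 0.0645 to 0.0798). The antisense gene *Nespas* overlaps *Gnas*, and the counting used no strand, so their reads cannot be told apart where they overlap. *Gnas* has several start sites and its count covers the whole locus, so transcripts other than that of Gs alpha are not separated.

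*Gnaq* and *Gna11* encode the subunits that link the receptor to phospholipase C. *Gnaq* was lower in *Glis3*-Pax8Cre than in WT mice on LID (log2 difference -0.36 ± 0.11, adjusted p = 0.0228), at 80.3 ± 11.1 against 103 ± 9.07 CPM (mean ± SD, n = 4), and the call was lost without any 1 of WT(LID) mice 2 and 3 or *Glis3*-Pax8Cre(LID) mice 1 and 2 (adjusted p 0.0503 to 0.0707). *Gna11* was lower there (log2 difference -0.23 ± 0.08, adjusted p = 0.03998) and higher with LID in WT by 0.22 ± 0.08 (adjusted p = 0.0371). Both calls for *Gna11* were for differences under 0.25, and they were lost without any 1 of WT(ND) mouse 2, WT(LID) mice 1, 3 and 4 or *Glis3*-Pax8Cre(LID) mice 1, 2 and 4 (adjusted p 0.0515 to 0.113) and without any 1 of WT(ND) mice 1, 2, 3 and 4 or WT(LID) mice 1, 3 and 4 (adjusted p 0.0574 to 0.0950).

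Among the adenylyl cyclases, which make cAMP from ATP, *Adcy6* had the highest level per length in every group, between 29.2 and 35.7 CPM per kb, and no cyclase was called higher in *Glis3*-Pax8Cre mice. *Adcy9* followed in WT(ND) with 12.7 CPM per kb, then *Adcy3* with 4.80, *Adcy4* with 3.77 and *Adcy7* with 2.67. *Adcy2* and *Adcy5* were under 1 CPM per kb in every group and *Adcy1* and *Adcy8* under 0.3. Of the 9, 5 were lower in *Glis3*-Pax8Cre than in WT mice on LID, beside 15.4% of all genes. Between genotypes on ND 0 of 9 were called in edgeR, beside 10.3% of all genes higher and 9.25% lower. There 1 cyclase (*Adcy1*) had an unadjusted p under 0.05 in edgeR and was called by DESeq2. *Adcy6* was lower on LID (log2 difference -0.26 ± 0.09, adjusted p = 0.0481), at 179.9 ± 18.4 against 216 ± 3.49 CPM, a call lost without any 1 of the 10 animals other than WT(ND) mice 1, 3 and 4, *Glis3*-Pax8Cre(ND) mice 1 and 4 or *Glis3*-Pax8Cre(LID) mouse 3 (adjusted p 0.0540 to 0.132).

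*Adcy4* had the smallest adjusted p of the 9 cyclases in both comparisons with WT(LID). Its levels were 12.8, 13.3, 13.04 and 13.9 CPM in WT(ND) and 12.99, 16.4, 13.3 and 13.01 in *Glis3*-Pax8Cre(ND). On the low-iodine diet it was at 52.6, 52.6, 46.95 and 47.2 CPM in WT and 15.7, 17.9, 16.3 and 12.8 in *Glis3*-Pax8Cre mice. The 4 WT(LID) mice were above the other 12, which overlapped. *Adcy4* rose by 1.91 ± 0.10 (adjusted p = 7.11e-09) in WT, while the difference with LID in *Glis3*-Pax8Cre mice was 0.17 (95% interval -0.05 to 0.39). It was lower in *Glis3*-Pax8Cre than in WT mice on LID (log2 difference -1.67 ± 0.10, adjusted p = 2.91e-08), and the interaction was -1.74 ± 0.14 (adjusted p = 3.10e-06). Per length it was the fourth cyclase in WT(ND) and the second in WT(LID), at 14.2 CPM per kb.

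Endothelial markers moved with the same samples. The 5 markers (*Pecam1*, *Cdh5*, *Kdr*, *Tie1* and *Emcn*) summed to 512, 488, 620.0 and 578 CPM in WT(ND) and 661, 889, 724 and 634 in *Glis3*-Pax8Cre(ND). On LID they summed to 1316, 1327, 1488 and 1406 CPM in WT and 591, 731, 754 and 595 in *Glis3*-Pax8Cre mice. All 5 rose with LID in WT and all 5 had a negative interaction, 4 of 5 were lower in *Glis3*-Pax8Cre than in WT mice on LID, with *Emcn* at -0.41 (adjusted p = 0.0602), and none of the 5 was at 0 in every mouse. Of the 5 pericyte and smooth muscle markers, 4 rose with LID in WT and 4 were lower in *Glis3*-Pax8Cre(LID), with summed levels of 352 to 449 CPM on ND and 825 to 1253 on LID in WT and 457 to 638 and 424 to 639 in *Glis3*-Pax8Cre mice, and none at 0 in every mouse. Their part in the levels of *Adcy4* and of the exchange factors was not tested.

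**Figure D3:**
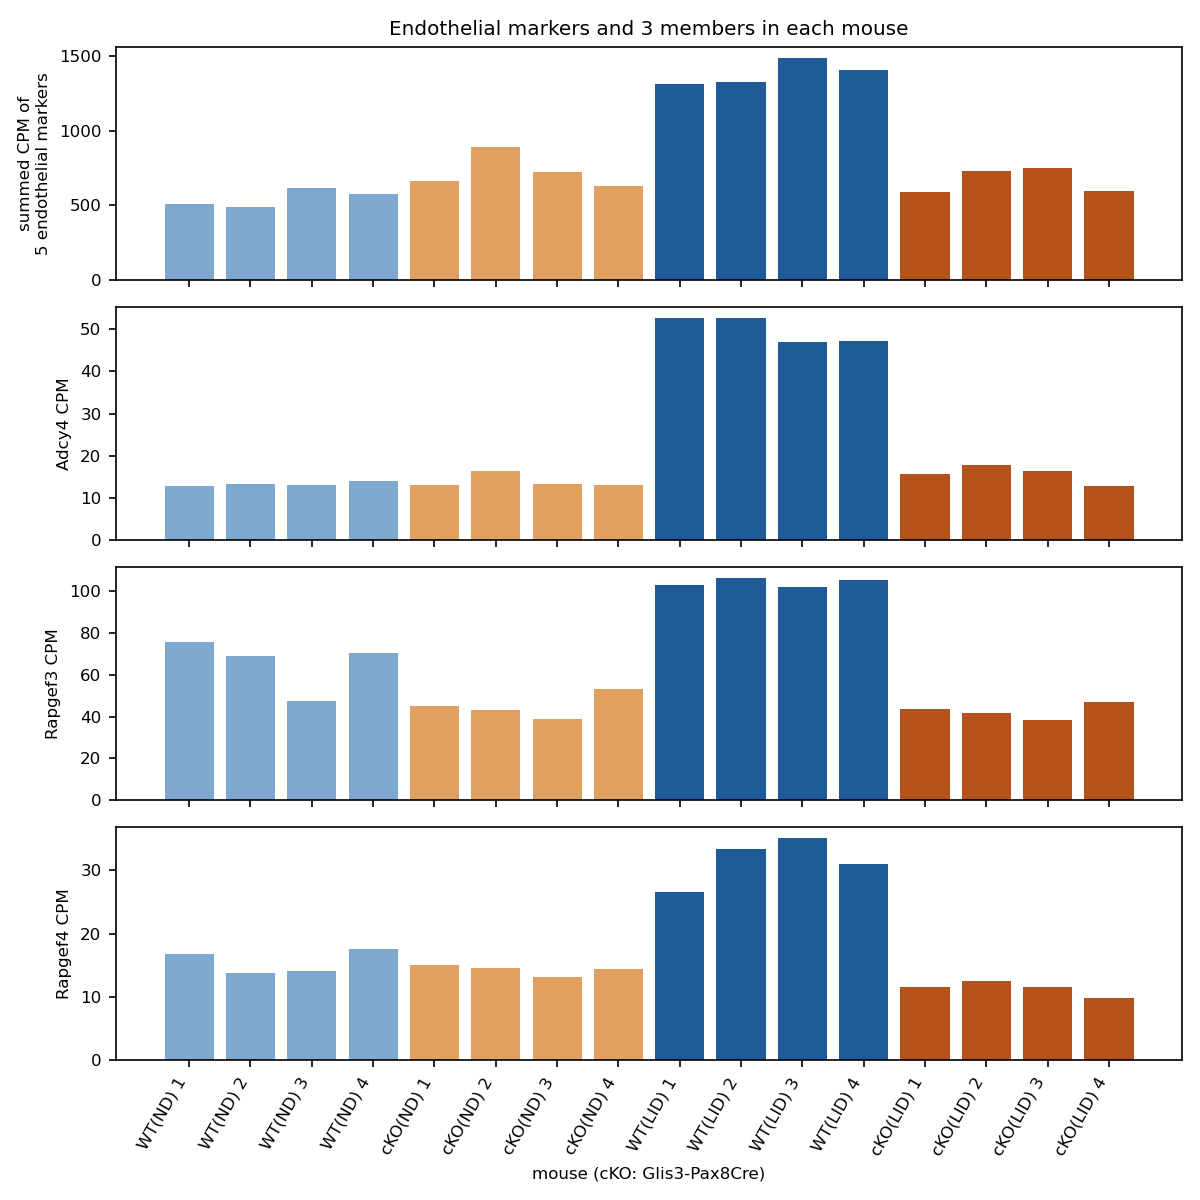
Bars give, for each of the 16 mice, the summed CPM of 5 endothelial markers (top) and the CPM of *Adcy4*, *Rapgef3* and *Rapgef4*, on axes that start at 0, with cKO for *Glis3*-Pax8Cre. The 4 WT(LID) mice have the highest bar in every panel, and the marker sum there, 1316 to 1488 CPM, does not overlap the other groups.

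*Adcy3* rose with LID in WT by 0.57 ± 0.16 (adjusted p = 0.00989) and was lower in *Glis3*-Pax8Cre than in WT mice on LID (log2 difference -0.48 ± 0.16, adjusted p = 0.0333), with 24.1 ± 5.95 CPM on ND and 35.8 ± 2.86 on LID in WT and 22.3 ± 2.31 and 25.7 ± 4.62 in *Glis3*-Pax8Cre mice. The genotype call for *Adcy3* was lost without any 1 of WT(LID) mice 1, 2 and 4 or *Glis3*-Pax8Cre(LID) mice 1, 2 and 4 (adjusted p 0.0559 to 0.103). *Adcy9* fell with LID in WT (log2 difference -0.43 ± 0.17, adjusted p = 0.0496), a call lost without any 1 of the 12 animals other than WT(ND) mouse 2, *Glis3*-Pax8Cre(ND) mice 3 and 4 or *Glis3*-Pax8Cre(LID) mouse 3 (adjusted p 0.0504 to 0.128). *Adcy8*, a cyclase stimulated by calcium, was counted only 0 to 51 times per mouse: 0, 4, 3 and 35 in WT(ND), 1, 11, 4 and 3 in *Glis3*-Pax8Cre(ND), 51, 39, 34 and 35 in WT(LID), and 9, 7, 17 and 8 in *Glis3*-Pax8Cre(LID). The count of 35 in WT(ND) came from the library of 461077969 counts. At that depth *Adcy8* was called higher with LID in WT and lower in *Glis3*-Pax8Cre than in WT mice on LID, with adjusted p = 1.98e-05 and 0.00173, at 0.0449, 0.590 and 0.145 CPM in WT(ND), WT(LID) and *Glis3*-Pax8Cre(LID). Its negative interaction (adjusted p = 0.0329) was lost without any 1 of the 10 animals other than WT(ND) mice 1, 3 and 4, *Glis3*-Pax8Cre(ND) mice 1 and 4 or *Glis3*-Pax8Cre(LID) mouse 3 (adjusted p 0.0510 to 0.0792).

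*Adcy7* and *Adcy1* had their highest value in the library with the highest thymocyte marker sum. *Adcy7* was at 17.7, 20.5, 12.1 and 16.1 CPM in WT(ND) and 12.4, 14.4, 10.8 and 39.4 in *Glis3*-Pax8Cre(ND), the last being replicate 4. On LID the mice had 21.2, 20.96, 18.4 and 21.3 CPM in WT and 10.02, 7.87, 9.53 and 10.3 in *Glis3*-Pax8Cre mice, without overlap. *Adcy7* was lower in *Glis3*-Pax8Cre than in WT mice on LID (log2 difference -1.12 ± 0.32, adjusted p = 0.0167). The difference with LID in *Glis3*-Pax8Cre mice was -1.03 ± 0.32 (adjusted p = 0.0303), -0.42 (adjusted p = 0.0522) without *Glis3*-Pax8Cre(ND) replicate 4, and adjusted p = 0.0683 under the replicate block. That call was lost without any 1 of *Glis3*-Pax8Cre(ND) mouse 4 or *Glis3*-Pax8Cre(LID) mice 1, 2, 3 and 4 (adjusted p 0.0516 to 0.0774). *Adcy1* was at 1.46, 0.821, 0.819 and 0.861 CPM in WT(ND) and 1.44, 1.28, 0.991 and 6.42 in *Glis3*-Pax8Cre(ND). The LID levels were 0.691, 0.976, 1.22 and 1.11 CPM in WT and 0.881, 0.716, 0.928 and 1.32 in *Glis3*-Pax8Cre mice. Its groups overlapped in every comparison. The call with LID in *Glis3*-Pax8Cre mice, -1.41 ± 0.49 (adjusted p = 0.0454), was -0.36 (adjusted p = 0.359) without *Glis3*-Pax8Cre(ND) replicate 4 and had adjusted p = 0.0861 under the replicate block, and it was lost without any 1 of the 12 animals other than WT(ND) mouse 1 or *Glis3*-Pax8Cre(ND) mice 1, 2 and 3 (adjusted p 0.0504 to 0.359). The thymocyte markers *Rag1* and *Cd3e* were at 1120.1 and 71.2 CPM in that library. The highest thymocyte sums of the other groups were 117 CPM in WT(ND) mouse 1, 168 in WT(LID) mouse 3 and 244 in *Glis3*-Pax8Cre(LID) mouse 4. *Adcy1* was also the highest of its group in each of these mice, and *Adcy7* only in the last. The part of thymocyte markers in these values was not tested.

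*Adcy2* was at 3.36 ± 0.745 CPM on ND and 1.94 ± 0.526 on LID in WT and 2.77 ± 1.25 and 1.73 ± 0.662 in *Glis3*-Pax8Cre mice, and *Adcy5* at 5.03 ± 1.01 CPM on ND and 5.29 ± 1.04 on LID in WT and 4.30 ± 1.03 and 4.06 ± 1.32 in *Glis3*-Pax8Cre mice. Neither was called in edgeR. For *Adcy2* the difference with LID in WT was -0.79 ± 0.32 (adjusted p = 0.0572), with adjusted p = 0.0357 in DESeq2 and 0.00451 under the replicate block over all 16 mice. With the block in the 8 mice of that genotype *Adcy2* had an adjusted p of 0.0459 with LID.

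Of the 11 phosphodiesterases 7 rose and 2 fell with LID in WT, beside 20.9% and 20.8% of all genes. With LID in *Glis3*-Pax8Cre mice 5 rose and 0 fell, beside 13.1% and 12.3% of all genes. *Pde7b* had the highest level per length of the 11 in every group, between 17.8 and 41.97 CPM per kb. The PDE4 enzymes, which are specific for cAMP, did not move as 1 family: *Pde4b*, *Pde4c* and *Pde4d* rose with LID in WT and *Pde4a* fell.

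*Pde4d* was at 25.2, 35.1, 21.2 and 26.3 CPM in WT(ND) and 46.8, 36.7, 76.8 and 62.3 in *Glis3*-Pax8Cre(ND). On LID it was at 57.4, 82.97, 79.9 and 63.4 CPM in WT and 93.01, 154, 131 and 128 in *Glis3*-Pax8Cre mice. The groups of each of the 4 comparisons were without overlap, and the order of the groups was that of *Tshr*. *Pde4d* rose with LID by 1.40 ± 0.22 (adjusted p = 1.79e-04) in WT and 1.18 ± 0.22 (adjusted p = 0.00156) in *Glis3*-Pax8Cre mice. It was higher in *Glis3*-Pax8Cre mice by 0.84 ± 0.22 (adjusted p = 0.00987) on LID and 1.05 ± 0.22 (adjusted p = 0.00477) on ND, with an interaction of -0.21 (95% interval -0.88 to 0.45). The deposited coordinates of *Pde4d* span 2 microRNA genes, *Mir1904* and *Mir582*.

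*Pde7b*, which codes for a high-affinity cAMP enzyme, was at 82.1, 82.2, 97.3 and 79.7 CPM in WT(ND) and 106, 126, 105 and 85.2 in *Glis3*-Pax8Cre(ND). In the LID groups it was at 109, 133, 122 and 129 CPM in WT and 193, 169, 232 and 212 in *Glis3*-Pax8Cre mice. The 4 *Glis3*-Pax8Cre(LID) mice were above the other 12. *Pde7b* rose with LID by 0.53 ± 0.12 (adjusted p = 0.00245) in WT and 0.93 ± 0.12 (adjusted p = 7.90e-05) in *Glis3*-Pax8Cre mice, and was higher by 0.71 ± 0.12 (adjusted p = 3.64e-04) in *Glis3*-Pax8Cre than in WT mice on LID. On ND the genotype difference was 0.31 ± 0.12 (adjusted p = 0.0843).

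*Pde10a*, whose enzyme acts on cAMP and cGMP, was at 7.61, 10.9, 7.62 and 5.84 CPM in WT(ND) and 17.9, 7.95, 6.63 and 9.85 in *Glis3*-Pax8Cre(ND). On the low-iodine diet it was at 19.5, 18.3, 15.6 and 17.02 CPM in WT and 34.6, 20.2, 31.5 and 25.5 in *Glis3*-Pax8Cre mice. Each LID group lay above its ND group, and *Glis3*-Pax8Cre(ND) replicate 1 was the highest of the ND mice. *Pde10a* rose with LID by 1.14 ± 0.27 (adjusted p = 0.00326) in WT and by 1.42 ± 0.27 (adjusted p = 0.00177) in *Glis3*-Pax8Cre mice. Between genotypes on LID the difference was 0.67 ± 0.27 (adjusted p = 0.0717).

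*Pde4c* was at 5.02, 5.11, 9.69 and 4.99 CPM in WT(ND) and 9.35, 10.3, 10.8 and 8.10 in *Glis3*-Pax8Cre(ND). On LID the mice had 16.2, 15.6, 14.5 and 12.6 CPM in WT and 14.4, 16.3, 14.5 and 16.3 in *Glis3*-Pax8Cre mice. WT(ND) replicate 3 lay among the *Glis3*-Pax8Cre(ND) mice. *Pde4c* rose with LID by 1.25 ± 0.19 (adjusted p = 9.05e-05) in WT and 0.67 ± 0.19 (adjusted p = 0.0157) in *Glis3*-Pax8Cre mice, and on ND it was higher in *Glis3*-Pax8Cre mice by 0.64 ± 0.19 (adjusted p = 0.0268). With WT(ND) replicate 3 and *Glis3*-Pax8Cre(ND) replicate 4 left out the last value was 1.02 (adjusted p = 8.21e-06), and the call was lost without any 1 of WT(ND) mice 1, 2 and 4 or *Glis3*-Pax8Cre(ND) mice 2 and 3 (adjusted p 0.0546 to 0.0849). On LID the genotypes differed by 0.06 (95% interval -0.33 to 0.46).

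*Pde4b* was at 18.5 ± 2.49 CPM on ND and 24.1 ± 3.39 on LID in WT and 24.8 ± 4.64 and 33.8 ± 4.39 in *Glis3*-Pax8Cre mice. It rose with LID by 0.38 ± 0.15 (adjusted p = 0.0451) in WT and 0.45 ± 0.15 (adjusted p = 0.0348) in *Glis3*-Pax8Cre mice and was higher by 0.49 ± 0.15 (adjusted p = 0.0194) in *Glis3*-Pax8Cre than in WT mice on LID. These calls for *Pde4b* were lost without any 1 of the 8 animals other than WT(ND) mice 2 and 3, *Glis3*-Pax8Cre(ND) mice 1, 2, 3 and 4, WT(LID) mouse 2 or *Glis3*-Pax8Cre(LID) mouse 2 (adjusted p 0.05001 to 0.131), without any 1 of *Glis3*-Pax8Cre(ND) mice 2 and 3 or *Glis3*-Pax8Cre(LID) mice 1, 3 and 4 (adjusted p 0.0746 to 0.103) and without any 1 of WT(LID) mice 2 and 3 or *Glis3*-Pax8Cre(LID) mouse 4 (adjusted p 0.0556 to 0.0745), in that order.

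*Pde4a* went the other way. Its levels were 19.8, 23.7, 19.5 and 21.7 CPM in WT(ND) and 13.5, 15.5, 13.6 and 11.03 in *Glis3*-Pax8Cre(ND). The LID levels were 15.1, 15.2, 16.1 and 13.8 CPM in WT and 13.1, 12.6, 14.02 and 12.4 in *Glis3*-Pax8Cre mice. The 4 WT(ND) mice were above the other 12. *Pde4a* fell by 0.49 ± 0.10 (adjusted p = 0.00114) with LID in WT and was lower in *Glis3*-Pax8Cre than in WT mice on ND (log2 difference -0.66 ± 0.10, adjusted p = 5.09e-04).

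*Pde8a* and *Pde3a* were highest in WT(LID). *Pde8a*, which codes for a high-affinity cAMP enzyme, was at 29.4, 36.8, 32.3 and 34.95 CPM in WT(ND) and 38.1, 33.8, 32.7 and 29.1 in *Glis3*-Pax8Cre(ND). On LID it was at 54.9, 59.9, 55.1 and 55.5 CPM in WT and 39.9, 32.4, 42.6 and 42.3 in *Glis3*-Pax8Cre mice. Every WT(LID) mouse was above the other 12. *Pde8a* rose by 0.76 ± 0.10 (adjusted p = 2.96e-05) with LID in WT, was lower in *Glis3*-Pax8Cre than in WT mice on LID (log2 difference -0.52 ± 0.10, adjusted p = 0.00103), and had an interaction of -0.52 ± 0.14 (adjusted p = 0.0263), a call lost without WT(LID) mouse 2 (adjusted p 0.0532).

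*Pde3a*, whose enzyme is inhibited by cGMP and which is known from vessel and heart muscle, was at 2.83, 2.61, 2.90 and 2.98 CPM in WT(ND) and 3.01, 3.48, 2.45 and 1.94 in *Glis3*-Pax8Cre(ND). In the LID groups it was at 4.98, 7.10, 8.70 and 7.47 CPM in WT and 3.28, 1.90, 4.33 and 1.90 in *Glis3*-Pax8Cre mice. The WT(LID) mice were again above the other 12. *Pde3a* rose by 1.32 ± 0.26 (adjusted p = 8.60e-04) with LID in WT and was lower in *Glis3*-Pax8Cre than in WT mice on LID (log2 difference -1.30 ± 0.26, adjusted p = 0.00136). Its interaction was -1.25 ± 0.37 (adjusted p = 0.0374), a call lost without any 1 of the 10 animals other than WT(ND) mouse 3, *Glis3*-Pax8Cre(ND) mice 3 and 4, WT(LID) mouse 1 or *Glis3*-Pax8Cre(LID) mice 1 and 3 (adjusted p 0.0544 to 0.0793). The endothelial and pericyte lists given beside *Adcy4* moved with the same samples, and their part was not tested.

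*Pde3b*, the related enzyme of fat and liver, was at 31.5, 57.9, 33.8 and 53.3 CPM in WT(ND) and 29.5, 28.4, 22.7 and 39.3 in *Glis3*-Pax8Cre(ND). On the low-iodine diet it was at 25.6, 20.1, 21.6 and 20.6 CPM in WT and 35.8, 33.4, 38.1 and 20.3 in *Glis3*-Pax8Cre mice. WT(ND) replicates 2 and 4 had the highest values. *Pde3b* fell by 1.01 ± 0.23 (adjusted p = 0.00256) with LID in WT, and its interaction was 1.10 ± 0.32 (adjusted p = 0.0380), a call lost without any 1 of the 11 animals other than WT(ND) mice 1 and 3, *Glis3*-Pax8Cre(ND) mouse 4, WT(LID) mouse 1 or *Glis3*-Pax8Cre(LID) mouse 4 (adjusted p 0.0571 to 0.0797). The 5 adipocyte markers (*Adipoq*, *Plin1*, *Cidec*, *Lep* and *Ucp1*) summed to 324, 835, 412 and 632 CPM in WT(ND) and to 138 to 215 in WT on LID, and in *Glis3*-Pax8Cre mice to 159 to 352 on ND and 146 to 343 on LID, with none at 0 in every mouse. Of these 5, 4 fell with LID in WT and 3 had a positive interaction, and their part in *Pde3b* was not tested.

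*Pde7a* stayed between 24.99 and 27.1 CPM and *Pde8b* between 2.27 and 2.55 CPM in group means, with no call. The differences of *Pde7a* ran from -0.10 to 0.11 and those of *Pde8b* from -0.08 to 0.17.

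**Figure D4:**
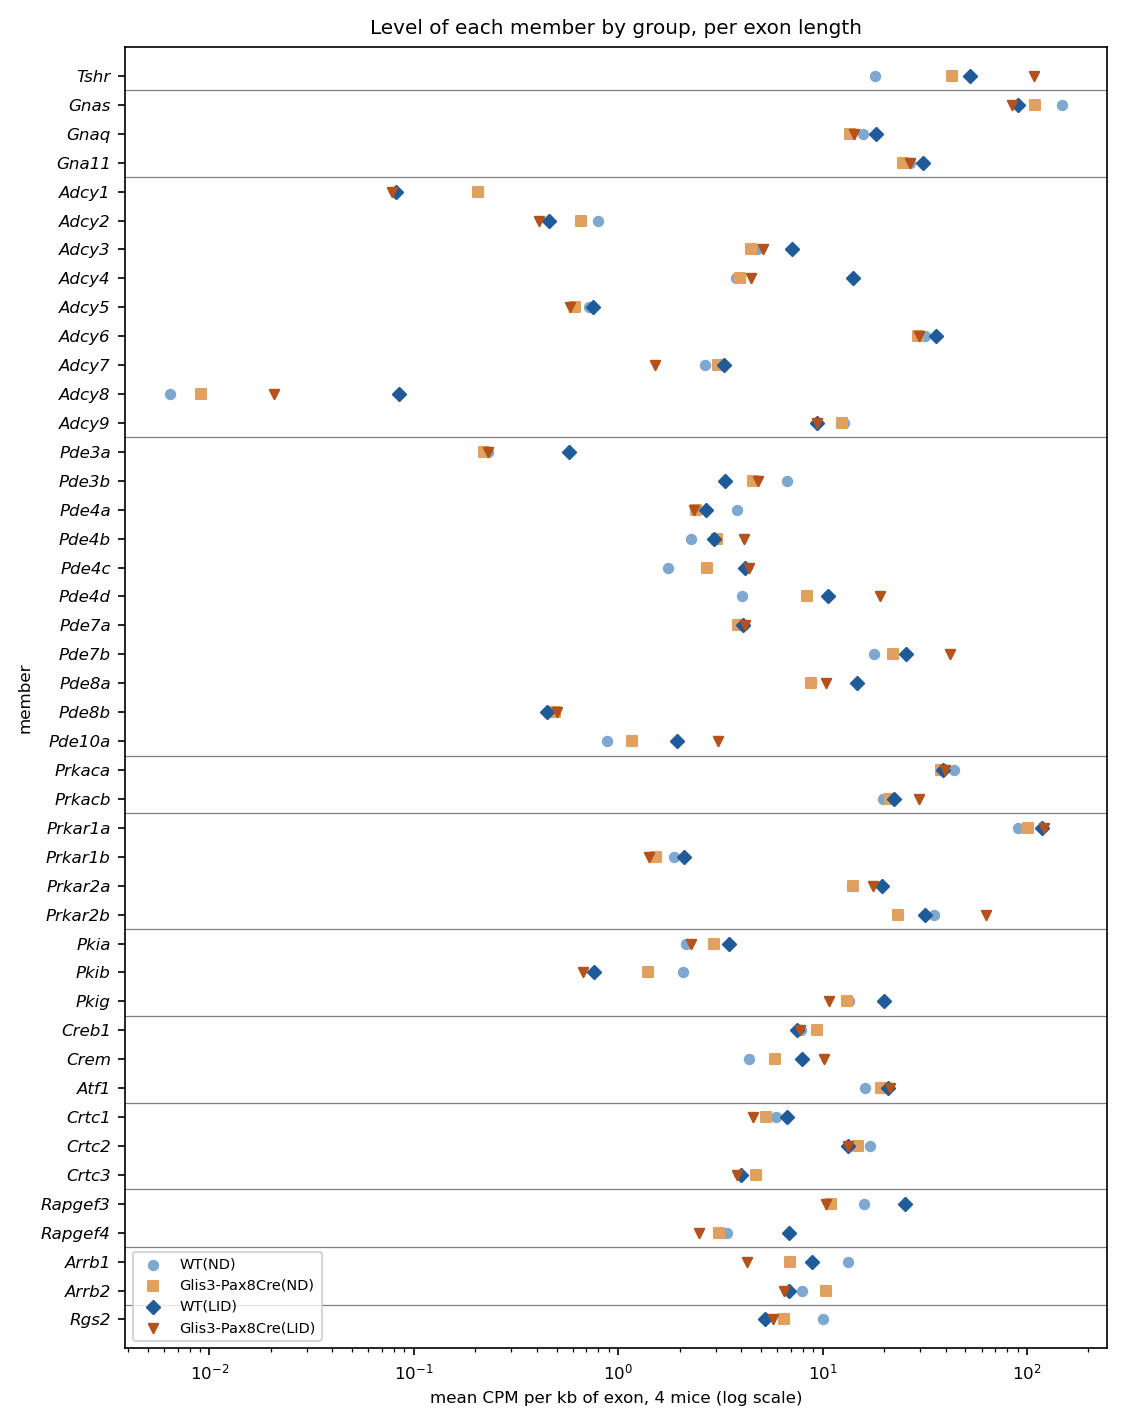
Each point is the mean CPM per kb of exon in 1 group of 4 mice (log axis) for the 44 members, ordered by role. Levels span from 0.00643 CPM per kb for *Adcy8* to 149 for *Gnas*, both in WT(ND).

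PKA is a tetramer of regulatory and catalytic subunits, and cAMP binding to the regulatory subunits frees the catalytic ones. Per length *Prkar1a* was the highest regulatory subunit in every group, between 90.3 and 121 CPM per kb, and *Prkaca* was the higher of the catalytic subunits. *Prkaca* was called in 0 of the 4 comparisons of groups in edgeR and DESeq2, with differences from -0.22 to 0.07, and unadjusted p under 0.05 in 2 of them. *Prkacb* was higher in *Glis3*-Pax8Cre than in WT mice on LID by 0.41 ± 0.10 (adjusted p = 0.00527) and rose with LID in *Glis3*-Pax8Cre mice by 0.47 ± 0.10 (adjusted p = 0.00295), at 103 ± 2.47 CPM on ND and 117 ± 9.57 on LID in WT and 112 ± 16.5 and 155 ± 13.7 in *Glis3*-Pax8Cre mice.

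*Prkar2b*, the type II beta regulatory subunit, known from fat and brain, was at 75.4, 188, 81.4 and 168 CPM in WT(ND) and 104, 88.4, 77.7 and 74.00 in *Glis3*-Pax8Cre(ND). On LID the mice had 119, 114, 98.96 and 133 CPM in WT and 241, 206, 249 and 221 in *Glis3*-Pax8Cre mice. The 4 *Glis3*-Pax8Cre(LID) mice were above the other 12, and WT(ND) split into replicates 2 and 4 near the top and 1 and 3 near the bottom of the remaining values. *Prkar2b* was higher by 0.98 ± 0.24 (adjusted p = 0.00675) in *Glis3*-Pax8Cre than in WT mice on LID, rose by 1.42 ± 0.25 (adjusted p = 8.67e-04) with LID in *Glis3*-Pax8Cre mice, and had an interaction of 1.56 ± 0.34 (adjusted p = 0.00842). With LID in WT the difference was -0.14 (95% interval -0.66 to 0.37). The adipocyte markers given beside *Pde3b* were also highest in WT(ND) replicates 2 and 4, and summed to 146 to 343 CPM in *Glis3*-Pax8Cre(LID). Of the 5, 3 had a positive interaction and 1 was higher in *Glis3*-Pax8Cre than in WT mice on LID, and their part in *Prkar2b* was not tested.

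*Prkar1a*, in which loss-of-function mutations cause Carney complex, was at 368 ± 28.96 CPM on ND and 482 ± 14.7 on LID in WT and 411 ± 14.9 and 491 ± 6.996 in *Glis3*-Pax8Cre mice. It rose with LID by 0.39 ± 0.07 (adjusted p = 3.63e-04) in WT and by 0.25 ± 0.07 (adjusted p = 0.0142) in *Glis3*-Pax8Cre mice, the latter with adjusted p = 0.144 under the replicate block. *Prkar2a* rose by 0.48 ± 0.11 (adjusted p = 0.00281) in WT. Its call in *Glis3*-Pax8Cre mice, 0.32 ± 0.11 (adjusted p = 0.0460), had adjusted p = 0.148 under the replicate block and was lost without any 1 of the 14 animals other than *Glis3*-Pax8Cre(ND) mouse 1 or *Glis3*-Pax8Cre(LID) mouse 2 (adjusted p 0.0513 to 0.142). *Prkar1b*, at 4.11 to 6.07 CPM in group means, was lower in *Glis3*-Pax8Cre than in WT mice on LID (log2 difference -0.56 ± 0.17, adjusted p = 0.0174), a call lost without any 1 of WT(LID) mice 3 and 4 or *Glis3*-Pax8Cre(LID) mouse 4 (adjusted p 0.0517 to 0.0585).

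The PKA inhibitor peptides bind the free catalytic subunit. *Pkig* was at 19.02, 19.1, 19.5 and 19.4 CPM in WT(ND) and 20.8, 20.3, 18.4 and 15.6 in *Glis3*-Pax8Cre(ND). The LID levels were 27.8, 25.6, 29.4 and 30.5 CPM in WT and 12.5, 21.4, 13.5 and 13.9 in *Glis3*-Pax8Cre mice. The WT(LID) mice were above the other 12. *Pkig* rose by 0.56 ± 0.14 (adjusted p = 0.00498) with LID in WT, was lower in *Glis3*-Pax8Cre than in WT mice on LID (log2 difference -0.89 ± 0.14, adjusted p = 2.23e-04), and had an interaction of -0.85 ± 0.20 (adjusted p = 0.0118).

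*Pkib* was at 10.7, 12.7, 14.1 and 12.99 CPM in WT(ND) and 11.2, 8.69, 6.44 and 7.67 in *Glis3*-Pax8Cre(ND). On LID it was at 3.66, 3.89, 5.93 and 5.08 CPM in WT and 7.14, 4.62, 2.69 and 1.99 in *Glis3*-Pax8Cre mice. The WT groups did not overlap and the *Glis3*-Pax8Cre groups did. *Pkib* fell with LID in WT (log2 difference -1.45 ± 0.31, adjusted p = 0.00172) and in *Glis3*-Pax8Cre mice (log2 difference -1.04 ± 0.31, adjusted p = 0.0239), the latter call lost without any 1 of *Glis3*-Pax8Cre(ND) mice 1 and 2 or *Glis3*-Pax8Cre(LID) mice 3 and 4 (adjusted p 0.0505 to 0.0690). The 3 parathyroid markers (*Pth*, *Gcm2* and *Casr*) also fell in both diet comparisons, 3 of 3 in each, with sums of 3476 to 6005 CPM on ND and 858 to 1676 on LID in WT and of 3289 to 5179.9 and 225 to 2099 in *Glis3*-Pax8Cre mice. None of the 3 was at 0 in every mouse, and their part in *Pkib* was not tested. *Pkia* was not called in edgeR (adjusted p = 0.0605 with LID in WT, and 0.0317 in DESeq2), at 7.84 ± 1.95 CPM on ND and 12.8 ± 3.18 on LID in WT and 10.7 ± 4.71 and 8.32 ± 2.37 in *Glis3*-Pax8Cre mice, and its highest values, 17.2 and 17.1 CPM, were in the 2 mice with the highest sums of the 5 skeletal muscle markers, 1245 and 983 CPM.

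CREB, ATF1 and CREM are the factors that PKA phosphorylates, and CREM also gives rise to the repressor ICER, which the gene-level count does not separate. *Crem* was at 25.5, 26.5, 17.6 and 17.3 CPM in WT(ND) and 26.7, 25.2, 40.3 and 24.7 in *Glis3*-Pax8Cre(ND). In the LID groups it was at 31.3, 45.04, 43.2 and 37.2 CPM in WT and 32.7, 77.2, 58.2 and 33.3 in *Glis3*-Pax8Cre mice. The WT groups did not overlap, and *Glis3*-Pax8Cre(ND) replicate 3 lay among the LID mice. *Crem* rose with LID by 0.85 ± 0.27 (adjusted p = 0.0187) in WT, a call lost without any 1 of WT(ND) mice 3 and 4 (adjusted p 0.0538 to 0.0569). In *Glis3*-Pax8Cre mice the difference was 0.78 ± 0.27 (adjusted p = 0.0431), which was 0.50 (adjusted p = 0.152) without *Glis3*-Pax8Cre(LID) replicate 2, and the call was lost without any 1 of the 12 animals other than WT(ND) mouse 2, *Glis3*-Pax8Cre(ND) mouse 3 or *Glis3*-Pax8Cre(LID) mice 1 and 4 (adjusted p 0.0507 to 0.152). The entry *Gm6225* overlaps *Crem*.

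*Atf1* was at 38.3 ± 1.19 CPM on ND and 49.2 ± 3.90 on LID in WT and 45.5 ± 3.60 and 50.6 ± 2.88 in *Glis3*-Pax8Cre mice. It rose by 0.36 ± 0.07 (adjusted p = 0.00111) with LID in WT and was higher by 0.25 ± 0.07 (adjusted p = 0.0284) in *Glis3*-Pax8Cre than in WT mice on ND, the latter call lost without any 1 of WT(ND) mouse 2 or *Glis3*-Pax8Cre(ND) mice 3 and 4 (adjusted p 0.0552 to 0.0772). *Creb1* was called in none of the comparisons, at 65.9 to 82.4 CPM in group means, and its 95% interval with LID in WT was -0.37 to 0.25.

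The CRTC proteins are coactivators of CREB. *Crtc1* was lower in *Glis3*-Pax8Cre than in WT mice on LID (log2 difference -0.56 ± 0.08, adjusted p = 8.67e-05), at 25.9 ± 1.80 against 38.3 ± 1.67 CPM, and its interaction of -0.39 ± 0.11 (adjusted p = 0.0354) was lost without any 1 of the 9 animals other than WT(ND) mice 1 and 3, *Glis3*-Pax8Cre(ND) mice 1, 3 and 4, WT(LID) mouse 1 or *Glis3*-Pax8Cre(LID) mouse 3 (adjusted p 0.0501 to 0.0769). *Crtc2* fell by 0.34 ± 0.07 (adjusted p = 0.00136) with LID in WT, from 46.6 ± 2.06 to 36.7 ± 1.64 CPM. *Crtc3* was lower with LID in *Glis3*-Pax8Cre mice (log2 difference -0.31 ± 0.11, adjusted p = 0.0417), with adjusted p = 0.105 under the replicate block, and the call was lost without any 1 of *Glis3*-Pax8Cre(ND) mice 2 and 4, WT(LID) mouse 4 or *Glis3*-Pax8Cre(LID) mice 1, 2 and 3 (adjusted p 0.0544 to 0.115).

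*Rapgef3* and *Rapgef4* encode EPAC1 and EPAC2, which cAMP activates without PKA. *Rapgef3* was at 75.8, 68.9, 47.4 and 70.4 CPM in WT(ND) and 44.98, 43.2, 38.7 and 53.4 in *Glis3*-Pax8Cre(ND). On the low-iodine diet it was at 103, 106, 102 and 105 CPM in WT and 43.6, 41.9, 38.2 and 47.1 in *Glis3*-Pax8Cre mice. The WT(LID) mice were above the other 12, and WT(ND) replicate 3 fell among the *Glis3*-Pax8Cre(ND) mice. *Rapgef3* rose by 0.66 ± 0.13 (adjusted p = 6.13e-04) with LID in WT, and in *Glis3*-Pax8Cre mice the difference was -0.08 (95% interval -0.35 to 0.19). It was lower in *Glis3*-Pax8Cre mice on LID (log2 difference -1.29 ± 0.13, adjusted p = 3.08e-06) and on ND (log2 difference -0.54 ± 0.13, adjusted p = 0.00773), where the fit of those 8 mice alone gave -0.52 (adjusted p = 0.0698), with an interaction of -0.74 ± 0.18 (adjusted p = 0.0132).

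*Rapgef4* was at 16.8, 13.8, 14.2 and 17.5 CPM in WT(ND) and 15.1, 14.6, 13.2 and 14.5 in *Glis3*-Pax8Cre(ND). On LID the mice had 26.6, 33.4, 35.1 and 31.05 CPM in WT and 11.5, 12.6, 11.6 and 9.90 in *Glis3*-Pax8Cre mice. WT(LID) was the highest group and *Glis3*-Pax8Cre(LID) the lowest, without overlap with the ND mice. *Rapgef4* rose by 1.01 ± 0.11 (adjusted p = 3.34e-06) with LID in WT and was lower in *Glis3*-Pax8Cre than in WT mice on LID (log2 difference -1.47 ± 0.11, adjusted p = 1.71e-07), with an interaction of -1.34 ± 0.15 (adjusted p = 4.12e-05). With LID in *Glis3*-Pax8Cre mice it was lower (log2 difference -0.33 ± 0.11, adjusted p = 0.0354), with adjusted p = 0.0957 under the replicate block, a call lost without any 1 of *Glis3*-Pax8Cre(ND) mice 1 and 2 or *Glis3*-Pax8Cre(LID) mice 1, 3 and 4 (adjusted p 0.0519 to 0.102).

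**Figure D5:**
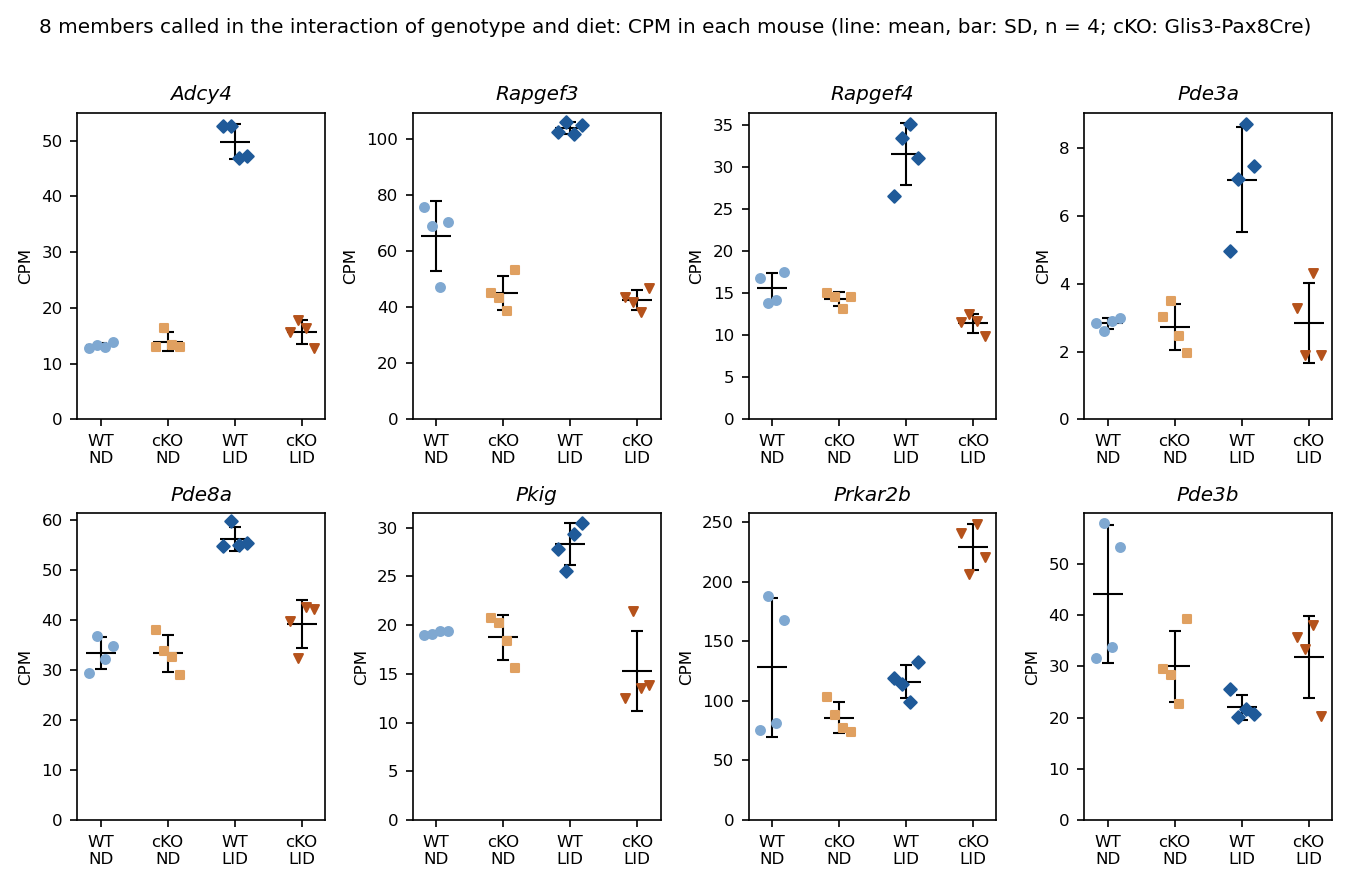
Points are the CPM of each mouse in the 4 groups for 8 of the 10 members called in the interaction of genotype and diet, horizontal lines are means and bars are SD (n = 4), on axes that start at 0, with cKO for *Glis3*-Pax8Cre. In *Adcy4*, *Rapgef3*, *Rapgef4*, *Pde3a*, *Pde8a* and *Pkig* the 4 WT(LID) mice are the highest, and in *Prkar2b* the 4 *Glis3*-Pax8Cre(LID) mice are.

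Arrestins bind the activated receptor, uncouple it from its G protein and take it into the cell. *Arrb1* was at 114, 95.5, 83.6 and 88.9 CPM in WT(ND) and 46.9, 53.8, 49.7 and 47.2 in *Glis3*-Pax8Cre(ND). The LID levels were 58.2, 62.4, 70.9 and 63.5 CPM in WT and 31.1, 29.6, 32.8 and 29.4 in *Glis3*-Pax8Cre mice. No group overlapped another, and the order of the groups was the reverse of that of *Tshr* at both ends. *Arrb1* fell with LID in WT (log2 difference -0.58 ± 0.09, adjusted p = 1.37e-04) and in *Glis3*-Pax8Cre mice (log2 difference -0.69 ± 0.09, adjusted p = 1.06e-04). It was lower in *Glis3*-Pax8Cre mice on LID (log2 difference -1.05 ± 0.09, adjusted p = 8.42e-07) and on ND (log2 difference -0.95 ± 0.09, adjusted p = 1.51e-05), and its interaction was -0.11 (95% interval -0.38 to 0.17). The microRNA gene *Mir326* overlaps *Arrb1*.

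*Arrb2* was at 15.3, 14.4, 17.2 and 14.7 CPM in WT(ND) and 16.6, 16.4, 15.5 and 31.7 in *Glis3*-Pax8Cre(ND). On LID it was at 11.8, 13.3, 14.7 and 13.3 CPM in WT and 11.5, 15.2, 11.1 and 12.4 in *Glis3*-Pax8Cre mice. The highest value was that of *Glis3*-Pax8Cre(ND) replicate 4, the library with the highest thymocyte marker sum. The difference with LID in *Glis3*-Pax8Cre mice was -0.68 ± 0.19 (adjusted p = 0.0169), -0.37 (adjusted p = 0.0206) without that library, and adjusted p = 0.0551 under the replicate block. *Rgs2*, which codes for a protein that shortens G protein signals and inhibits some cyclases, was at 21.4, 31.7, 31.4 and 46.3 CPM in WT(ND) and 25.2, 20.5, 15.8 and 22.9 in *Glis3*-Pax8Cre(ND). In the LID groups it was at 16.9, 13.3, 18.1 and 19.5 CPM in WT and 20.3, 23.5, 17.02 and 13.3 in *Glis3*-Pax8Cre mice. All WT(LID) mice were below all WT(ND) mice, and the *Glis3*-Pax8Cre groups overlapped. *Rgs2* fell by 0.95 ± 0.22 (adjusted p = 0.00309) with LID in WT.

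Other genes of the pathway were taken as a list of 64, of which 56 passed the filter on low counts. The 4 hormone subunit genes (*Tshb*, *Cga*, *Gphb5* and *Gpha2*) and 4 A-kinase anchor genes did not. With LID in WT 15 of the 56 rose and 12 fell (26.8% and 21.4%), beside 20.9% and 20.8% of all genes. Between genotypes on LID 7 were higher and 17 lower in *Glis3*-Pax8Cre mice (12.5% and 30.4%), beside 14.9% and 15.4% of all genes. On ND 5 were higher and 10 lower (8.93% and 17.9%), beside 10.3% and 9.25%. With LID in *Glis3*-Pax8Cre mice 7 rose and 11 fell (12.5% and 19.6%), beside 13.1% and 12.3%.

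Between genotypes on LID, *Pde1c* and *Pde1a*, which code for calcium- and calmodulin-activated phosphodiesterases, were higher in *Glis3*-Pax8Cre mice by 2.07 ± 0.33 (adjusted p = 2.64e-04) and 0.82 ± 0.18 (adjusted p = 0.00260). *Pde1c* was at 13.3 ± 8.27 CPM on ND and 18.3 ± 0.298 on LID in WT and 74.4 ± 17.7 and 76.9 ± 17.2 in *Glis3*-Pax8Cre mice. *Gnai1*, an inhibitory alpha subunit, was higher by 0.60 ± 0.16 (adjusted p = 0.0107). Of the genes called lower whose mean level reached 1 CPM, the 3 with the largest differences were the anchor *Akap12* (-1.39), the inhibitory alpha subunit *Gnaz* (-1.26) and the cGMP-stimulated phosphodiesterase *Pde2a* (-1.16), with adjusted p = 0.00242, 0.00113 and 6.13e-05. With LID in WT the largest rises at that level were those of *Akap12* (1.19 ± 0.29, adjusted p = 0.00453), *Plcb1* (1.03 ± 0.14, adjusted p = 2.85e-05) and *Gnb4* (0.95 ± 0.10, adjusted p = 3.49e-06). The largest falls at that level were those of *Akap7* (-0.83 ± 0.12, adjusted p = 4.65e-05), *Gnal* (-0.66 ± 0.15, adjusted p = 0.00252) and *Rap1gap* (-0.59 ± 0.22, adjusted p = 0.0412). Below a mean of 1 CPM, and chosen after their values were seen, *Gna14* differed by more between genotypes on LID (log2 difference -1.63 ± 0.28, adjusted p = 3.77e-04), and *Adcy10* (log2 difference -3.13 ± 0.39, adjusted p = 1.67e-05) and *Akap5* (log2 difference -2.64 ± 0.43, adjusted p = 1.98e-04) by more with LID in WT. *Plcb1* codes for a phospholipase C and *Rap1gap* for a protein that turns RAP1 off.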

How the data were processed

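Thyroid glands of 16 mice were profiled by RNA-seq, 1 library per mouse. The deposited values are raw read pair counts per gene, which the authors made from paired-end reads (TruSeq libraries on a NextSeq500 or a NovaSeq system, with the instrument of each library not given in the sources used here). Per the labels and the study's methods, pairs with a mean base quality over 20 at both ends were mapped to mm10 with STAR 2.5 and counted on RefSeq gene models by featureCounts 1.5.0-p1 without regard to strand, so a gene and an antisense partner cannot be told apart. The authors tested genes with DESeq2. All 16 columns were mapped to samples, with 0 unused.

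Counts were tested as deposited with edgeR 4.0.16 in R 4.3.3: filterByExpr left 16630 of 25611 entries, libraries were scaled by TMM, and quasi-likelihood F tests of 4 groups of 4 mice gave 4 comparisons and the interaction, with Benjamini-Hochberg adjustment over all genes tested and intervals at 95%. Levels are means ± SD of CPM with n = 4. DESeq2 1.42.0, other scalings, other filters, other sample sets and a replicate block were the alternatives, and the closing section gives their effect. The test was tried on simulated counts first. Labels call the samples separate replicates of a group but do not state separate litters or extractions. The closest pair of libraries in a group differed by a chi-squared of 33.0 per degree of freedom over 24 pairs, so none was a repeat deposit. Depth sets the precision: counts of *Adcy8* near 0 carry little weight. The 95% intervals come from the edgeR fit and include the spread between mice.

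Labels number the replicates 1 to 4 in each group. Deviations from the group means of same-numbered mice correlated at 0.21 to 0.65 between *Glis3*-Pax8Cre(ND) and *Glis3*-Pax8Cre(LID), over 0.1 in every pair, and at -0.58 to 0.17 between the other groups. The number was therefore taken to pair those 2 groups, from the data and not from a label, and the blocked adjusted p of the 8-mouse fit stands beside each call it changed. Different-numbered mice were not compared, so the correlations do not show that the numbering itself pairs the mice. In both groups replicate 3 had the lowest skeletal muscle sum (1.60 and 2.56 CPM) and replicate 4 the highest thymocyte sum (1970.5 and 244 CPM). The part of such tissue in the correlations was not tested.

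The 44 members, the other pathway list and the marker lists were chosen with earlier results of these data known. Values in each mouse are given for *Tshr* and for members called with a fold change over 1.5 in at least 1 of the 4 comparisons and a mean of at least 1 CPM, and up to 3 other pathway genes per direction are named by the size of their difference. Promoter sequences are from RefSeq, GRCm38.p6.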

Additional observations from a re-analysis of the deposited data

Results flagged for a closer look

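Within the 22 members given by mouse, 88 sets of 4 values were examined for a mouse far from the other 3, taking the gap to the nearest value over the range of the 4, against Dixon's 95% critical value. Of these sets 11 passed, and chance passes about 1 in 20. In *Glis3*-Pax8Cre(ND) mouse 4 was the highest for *Adcy1* (0.917), *Adcy7* (0.873) and *Arrb2* (0.935). In WT(ND) mouse 3 was the highest for *Pde4c* (0.976) and *Pde7b* (0.860), and mouse 1 for *Adcy1* (0.935). The ratio was 0.907 for *Adcy4* in *Glis3*-Pax8Cre(ND) mouse 2, 0.874 for *Crem* in mouse 3 of that group, 0.846 for *Pkig* in *Glis3*-Pax8Cre(LID) mouse 2, 0.870 for *Pde8a* in WT(LID) mouse 2 and 0.881 for *Adcy7* in WT(LID) mouse 3, the last being the lowest of its group.

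The genotype difference itself differed between diets, by the interaction term of edgeR, in 10 members. The log2 interaction was -1.74 for *Adcy4*, -2.32 for *Adcy8*, -1.25 for *Pde3a*, -0.52 for *Pde8a*, -0.85 for *Pkig*, -0.39 for *Crtc1*, -0.74 for *Rapgef3* and -1.34 for *Rapgef4*. It was 1.10 for *Pde3b* and 1.56 for *Prkar2b*. The value for *Adcy8* rests on 0 to 51 counts per mouse and depends on the prior count.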

How the results depend on the processing

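Of 85 member results called, 52 stayed called under every alternative run, 33 lost the call under at least 1, and 0 changed direction. Another 135 were not called, 31 of which were called under at least 1 alternative. DESeq2 kept 85 of 85 and called 22, 12, 29, 19 and 13 members for genotype on LID, genotype on ND, diet in WT, diet in *Glis3*-Pax8Cre mice and the interaction. With stricter thresholds the counts were 7, 2, 10, 4 and 3 in that order. Fits of the 8 mice compared called 4 for genotype on ND and 8 for diet in *Glis3*-Pax8Cre mice, and lost 15 of 75 calls. Over all genes they called 872 higher and 781 lower for genotype on ND, and 1321 and 1053 for that diet comparison. Scaling by totals lost 18 calls, keeping all genes lost 9, and RLE scaling and a minimum of 10 counts in every mouse lost 1 each. Leaving out 1 mouse at a time gave 16 to 22, 5 to 10, 23 to 29, 11 to 19 and 5 to 11 calls. Leaving out WT(ND) mouse 3 and *Glis3*-Pax8Cre(ND) mouse 4 together, an alternative chosen after seeing the data, gave 21, 10, 29, 17 and 12.

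The replicate block over all 16 mice gave 18, 8, 26, 16 and 8 calls and lost 12 of 85, all with an adjusted p of at most 0.0722. In the 8 *Glis3*-Pax8Cre mice alone, also added after seeing the data, the paired fit called 12 members with LID. It lost *Gnas*, *Adcy1*, *Adcy7*, *Prkar1a*, *Prkar2a*, *Crtc3*, *Rapgef4* and *Arrb2*, gained *Adcy2* and changed no other call.

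Depth limits *Adcy8* and, at under 2 CPM in most mice, *Adcy1*. The cause of the calls lost was not tested.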

Other observations

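Among members that edgeR did not call, the differences with LID in WT were of -0.79 for *Adcy2* (95% interval -1.46 to -0.11) and 0.71 for *Pkia* (95% interval 0.09 to 1.32). Neither passed edgeR's adjustment, and DESeq2 called both (adjusted p = 0.0357 and 0.0317). In edgeR *Pde7a* (-0.32 to 0.28) and *Creb1* (-0.37 to 0.25) had intervals within 0.4 of 0.

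*Tshr*, *Pde4d*, *Rapgef3* and *Arrb1* were the members called between genotypes in the same direction on both diets, comparisons that share no mouse. Both members called higher (4.55% of the 44, beside 4.77% of all genes) and both called lower (4.55%, beside 4.22% of all genes) made up a share close to that of all genes.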
